A study of Mus musculus with 24 samples.

Results

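The regions described here are bivalent unacetylated regions of the Shh-/- limb bud: places that carried H3K4me2 and H3K27me3 but no H3K27ac. They were chosen by peak overlap of at least 1 bp, as H3K4me2 peaks of Shh-/- forelimb buds that overlapped an H3K27me3 peak of Shh-/- limb buds and no H3K27ac peak of Shh-/- or wild-type (WT) limb buds. Of 38468 Shh-/- H3K4me2 peaks on chromosomes 1 to 19, X and Y, 3865 met the rule. Another 524 had H3K27me3 together with limb H3K27ac, 19014 had limb H3K27ac without H3K27me3 and 15065 had neither. The marks were mapped by chromatin immunoprecipitation and sequencing (ChIP-seq) in E10.5 forelimb buds with 32 to 35 somites, on a Swiss Webster background, with 400000 cells per immunoprecipitation. The mutants were homozygous for a null allele of Shh in the germ line, labelled Shh-/-. The labels call the controls WT, and by the study's methods these were WT and heterozygous littermates together. H3K27me3 was mapped in Shh-/- limb buds, and no WT H3K27me3 list was used here. A further pair of H3K27ac lists came from NIH3T3, a fibroblast line of mouse embryos used to study Hedgehog signalling. Those cells had been given either purmorphamine, a small molecule that activates the pathway, at 400 nM for 48 h, or DMSO as control. The limb tissue was pooled from several embryos, and each list was called by the authors on 2 replicates together, so a region has 1 value per list and no replicate error.

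H3K4me2 is laid down at promoters and enhancers that are active or primed, and H3K27ac marks those in use. H3K27me3 is written by Polycomb repressive complex 2, which binds CpG islands of developmental genes that a tissue does not express. Promoters with a methylated lysine 4 beside H3K27me3 are called bivalent and were first described in embryonic stem cells, mostly with H3K4me3, so the word is used here in a wider sense. In a tissue of mixed cells the 2 marks may lie on the same nucleosomes or in different cells, and peak lists of bulk limb buds cannot tell these apart. Fewer cells with a mark and less of the mark per cell cannot be told apart either.

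What these regions look like in the genome is shown by stretches of 200 bp from 4 of them, read from GRCm38.p6 (the assembly that mm10 names, plus strand) with each CpG dinucleotide in capitals. Each is the stretch without exon sequence nearest the centre of its peak. The first lies in the best-ranked region of all, at Tead4 (chr6:128300095-128300294). The second lies in the best-ranked region at a promoter of the homeobox genes outside the named families, Otx1 (chr11:22002049-22002248). The third lies in the best-ranked region not yet shown that had H3K27ac peaks in both NIH3T3 lists, Galnt12 (chr4:47092349-47092548). These 3 lie inside a gene and outside its exons.
Tead4: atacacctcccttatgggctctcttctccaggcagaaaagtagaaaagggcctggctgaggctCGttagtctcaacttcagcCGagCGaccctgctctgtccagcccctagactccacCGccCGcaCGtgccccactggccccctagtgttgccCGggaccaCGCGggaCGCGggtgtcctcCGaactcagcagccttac
Otx1: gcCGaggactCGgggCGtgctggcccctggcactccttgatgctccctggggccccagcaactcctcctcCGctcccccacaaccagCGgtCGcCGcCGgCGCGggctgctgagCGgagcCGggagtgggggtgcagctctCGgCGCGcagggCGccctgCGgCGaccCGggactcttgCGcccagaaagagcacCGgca
Galnt12: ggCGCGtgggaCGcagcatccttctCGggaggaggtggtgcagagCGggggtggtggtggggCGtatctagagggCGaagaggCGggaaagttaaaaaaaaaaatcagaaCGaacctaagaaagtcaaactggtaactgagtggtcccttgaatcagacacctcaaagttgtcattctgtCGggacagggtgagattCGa
The fourth is the best-ranked region over 10 kb from any protein-coding start, inside a gene and 96720 bp from the nearest start of Casz1 (chr4:148901049-148901248).
Casz1: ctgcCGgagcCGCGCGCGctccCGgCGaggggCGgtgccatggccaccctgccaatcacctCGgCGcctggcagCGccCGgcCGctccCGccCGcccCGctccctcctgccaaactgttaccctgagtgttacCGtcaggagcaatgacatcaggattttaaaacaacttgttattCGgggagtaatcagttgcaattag
The stretches held 12, 21, 11 and 18 CpG in this order, and their GC content ran from 53.0% at Galnt12 to 75% at Otx1.

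These regions differed from the rest of the H3K4me2 list in their dense CpG. CpG-rich here means that the 500 bp at the peak centre had a GC content of at least 50% and an observed over expected CpG ratio of at least 0.6. Of the bivalent unacetylated regions, 2740 were CpG-rich, which is 70.9% (95% Wilson interval 69.4 to 72.3), while 30.2% of all Shh-/- H3K4me2 peaks were. The share was 57.6% (53.4 to 61.8) where H3K27me3 lay with H3K27ac, 29.6% (29.0 to 30.3) with H3K27ac alone and 19.4% (18.8 to 20.1) with neither mark. The classes differed in peak score and width, so the other peaks were weighted to the same deciles of score and width. The share in bivalent unacetylated regions was then 41.3 points higher than in all other peaks (95% interval 39.9 to 42.7). It was higher on 20 of 20 chromosomes with at least 50 of these regions, and leaving out each of them gave 41.0 to 41.7 points. Outside the promoter window the difference was also present: of the 1285 regions not at a promoter, 61.0% (58.3 to 63.6) were CpG-rich, against 10.6% (9.92 to 11.4) of the 7057 non-promoter peaks with neither mark. Peaks are not replicates of a condition, and these intervals cover counting error only. The median GC content was 64.0% and the median observed over expected ratio 0.731, against 52.4% and 0.509 over all peaks.

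**Figure D1:**
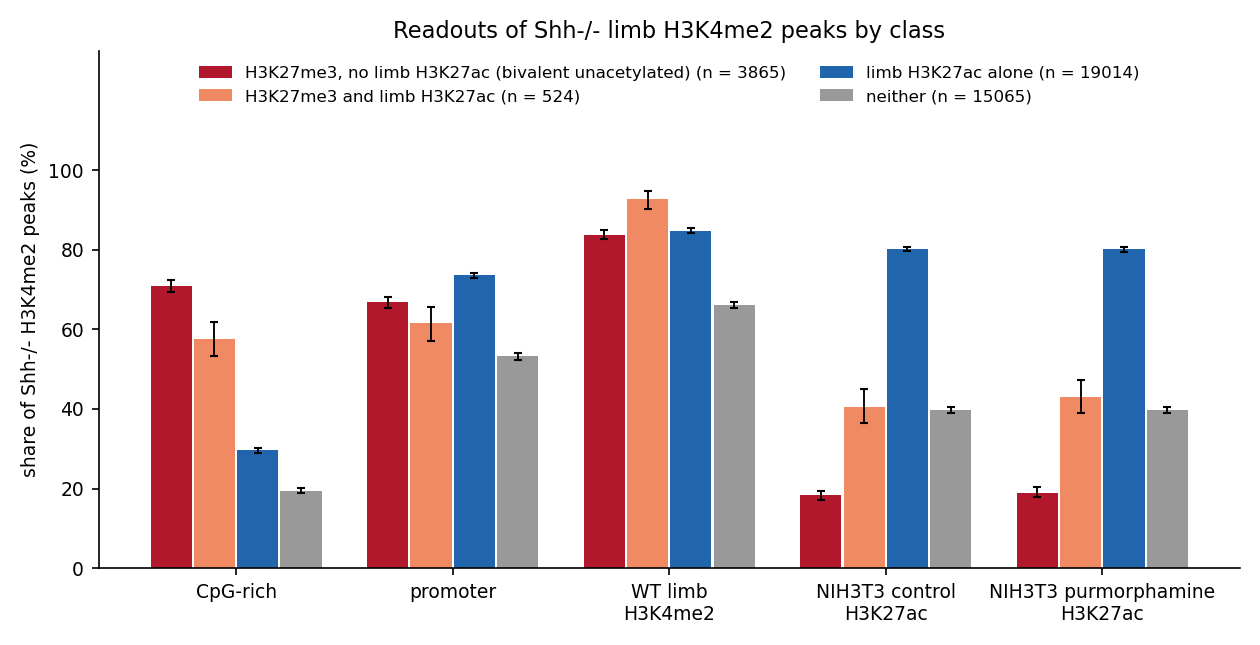
Share of Shh-/- limb H3K4me2 peaks (%) in each of 4 classes that were CpG-rich, lay at a promoter, or overlapped a peak of another list. Bars start at 0 and error bars are 95% Wilson intervals. The bivalent unacetylated regions (red) stand highest for CpG content at 70.9% and lowest for H3K27ac in NIH3T3 cells at 18.3% and 19%.

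A promoter was taken as 2 kb before to 1 kb after the start of a protein-coding transcript. By this measure 2580 of the regions, or 66.8% (65.3 to 68.2), lay at a promoter, close to the 64.7% of all H3K4me2 peaks. Weighted for score and width, the difference from all other peaks was -2.25 points (-3.74 to -0.756), with that sign on 12 of 20 chromosomes. Without weighting it was 2.26 points, so the direction depends on the weighting. The start itself lay under 1388 regions, or 35.9% (34.4 to 37.4), and under 32.1% (28.2 to 36.2) of peaks with H3K27me3 and H3K27ac, so these intervals overlapped. It lay under 16.0% (15.5 to 16.5) of peaks with H3K27ac alone and 13.0% (12.5 to 13.6) with neither mark. Among promoter regions, 67.8% had their centre after the start, and the median centre was 168 bp after it. The regions overlapped an exon with untranslated sequence in 1911 cases, another exon in 686, an intron without exon in 728 and no gene in 540. The first of these was 49.4% (47.9 to 51.0), against 45.6% (41.4 to 49.9) of peaks with H3K27me3 and H3K27ac. It was 30.1% with H3K27ac alone and 21.5% with neither mark. No gene was overlapped by 14.0% of the regions, and by 13.5%, 21.5% and 28.9% of these 3 classes in the same order. Those over 10 kb from a protein-coding start numbered 557, or 14.4% (13.3 to 15.6), against 26.9% (26.2 to 27.6) of peaks with neither mark.

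**Figure D2:**
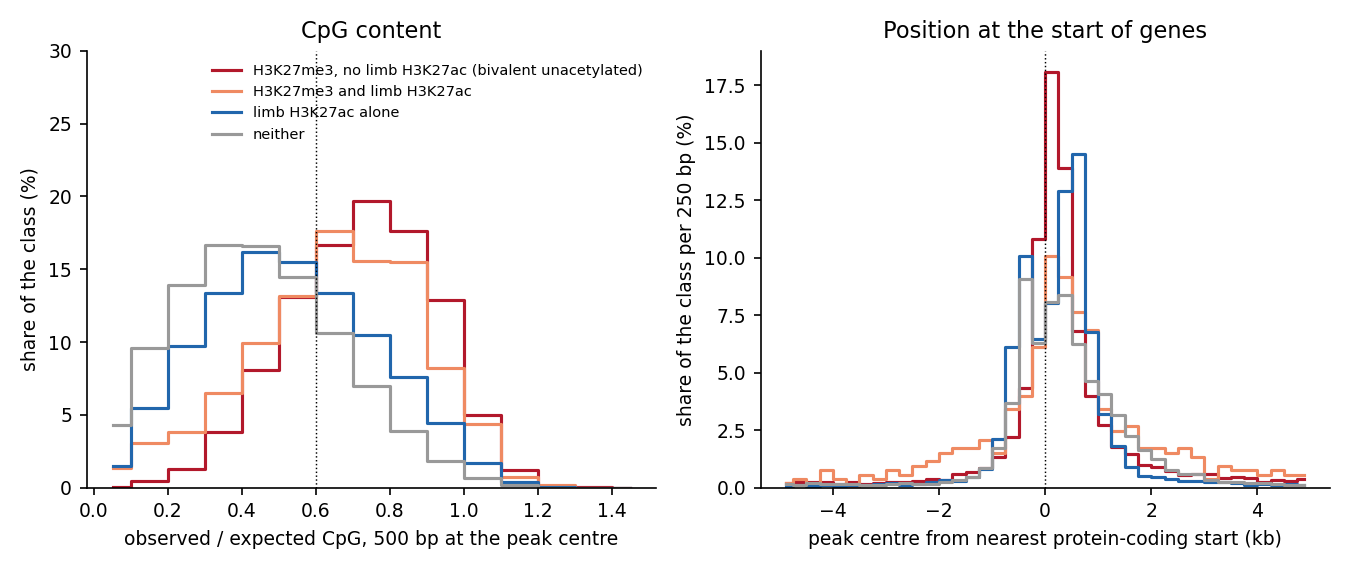
Left, distribution of the observed over expected CpG ratio of 500 bp at the peak centre, in steps of 0.1, with the CpG-rich limit of 0.6 dotted. Right, distance of the peak centre from the nearest protein-coding start in kb, positive along the gene, in steps of 250 bp. Lines are the 4 classes of Shh-/- H3K4me2 peaks as percent of each class. The bivalent unacetylated regions (red) are shifted to higher CpG and form a single summit just after the start, as do peaks with H3K27me3 and H3K27ac (orange). Peaks with H3K27ac alone (blue) and with neither mark (grey) have a dip near the start with a summit on each side.

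The regions were spread over the whole range of H3K4me2 strength, with a median rank of 15740, and made up a larger share at the top of the list. This is a description, since a strong or wide peak has more room to overlap another list. Of the 10 best-ranked Shh-/- H3K4me2 peaks 6 were bivalent and unacetylated, and of the best 100 there were 30. By the authors' peak score, on which the rank is ordered, such regions made up 8.27% of the weakest decile of peaks and 16.7% of the strongest. Their median width was 500 bp (quartiles 200 and 950) and their median largest log2 ratio of ChIP to input was 3.32 (2.73 and 3.92), against 3.29 in peaks with H3K27ac alone and 3.60 in peaks with H3K27me3 and H3K27ac. The best 15 all lay at a protein-coding gene's promoter, and all 15 had a WT H3K4me2 peak. They were picked by Shh-/- rank, so their Shh-/- ratios are high by choice, and no difference from WT was tested. The first was over the start of Tead4, which encodes a DNA-binding partner of the Hippo effector YAP (chr6:128299850-128301149), with a log2 ratio of 6.07 in Shh-/- and 4.31 in WT H3K4me2 and of 3.47 in H3K27me3. Among the others, Galnt12 (rank 2, log2 ratio 5.80) and Galnt3 (rank 4, 5.72) start mucin-type O-glycans, Hs6st3 (rank 3, 5.77) sulfates heparan sulfate, and Mgat5b (rank 12, 5.56) branches glycans. The next named were the phosphatase gene Ptpn5 (rank 5, 5.71), Prkaa2, the catalytic alpha2 subunit of AMP-activated kinase (rank 9, 5.63), and Prkg2, a cGMP-dependent kinase (rank 11, 5.59). The rest were the endocytic receptor Lrp2 (rank 13), its relative Lrp11 (rank 19), the 2-pore potassium channels Kcnk6 (rank 14) and Kcnk10 (rank 31), the deubiquitinase Otud7a (rank 16), the mineralocorticoid receptor Nr3c2 (rank 24) and 9130213A22Rik (rank 42). None of the developmental transcription factor and ligand genes listed below was among these 15.

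The H3K4me2 of these regions was mostly shared with WT limb buds. Of the 3865, 3240 overlapped a WT H3K4me2 peak, which is 83.8% (82.6 to 85.0), against 77.5% of all Shh-/- H3K4me2 peaks. Weighted for score and width, the share was 2.03 points above all other peaks (1.02 to 3.04), with that sign on 18 of 20 chromosomes. It lay above peaks with neither mark, by 3.57 points (2.52 to 4.61). Against peaks with H3K27ac alone the difference was 0.0851 points (-0.975 to 1.14), and against peaks with H3K27me3 and H3K27ac it was -4.02 points (-6.78 to -1.25). The difference did not run through all of the regions. Among non-promoter peaks the weighted share was 10.0 points above that of peaks with neither mark (7.90 to 12.2), and among promoter peaks the difference was -1.30 points (-2.44 to -0.164). Within CpG-rich peaks it was -1.31 points (-2.51 to -0.122). With the better-ranked 50% of every list the difference from all other peaks was 0.226 points (-1.16 to 1.61), and with an FDR under 0.05 in every list it was 1.08 points (-0.0178 to 2.18), both with intervals that include 0.

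In the shared regions the largest log2 ratio had a median of 3.48 in Shh-/- and 3.64 in WT, and the median difference, Shh-/- minus WT, was -0.083 (quartiles -0.569 and 0.368). For peaks with H3K27ac alone the median difference was -0.048, and for peaks with neither mark -0.133. Across the 3240 shared regions the 2 log2 ratios had a Pearson correlation of 0.508, given as a description, since the lists share the antibody and the sequence of each region. The lists were called separately, with 1 input each, and their depths were not used here. The 625 regions without a WT peak were weak ones: their median rank was 29901, their median width 150 bp, and 68.2% of them had a WT peak within 500 bp. The best-ranked of them (rank 4179, log2 ratio 4.10) lay 3405 bp from the start of Dlx2, a homeobox gene of forebrain and branchial arches, under an H3K27me3 peak of 16600 bp and with H3K27ac peaks in both NIH3T3 lists. Others among the best-ranked were near Ppm1a (rank 6440), near Ttc17 (rank 7439) and at Mafa (rank 8001). In the other direction, 3920 WT H3K4me2 peaks overlapped Shh-/- H3K27me3 and no limb H3K27ac, and 3084 of these, or 78.7% (77.4 to 79.9), had a Shh-/- H3K4me2 peak. Of the other WT H3K4me2 peaks 73.7% (73.3 to 74.2) did.

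**Figure D3:**
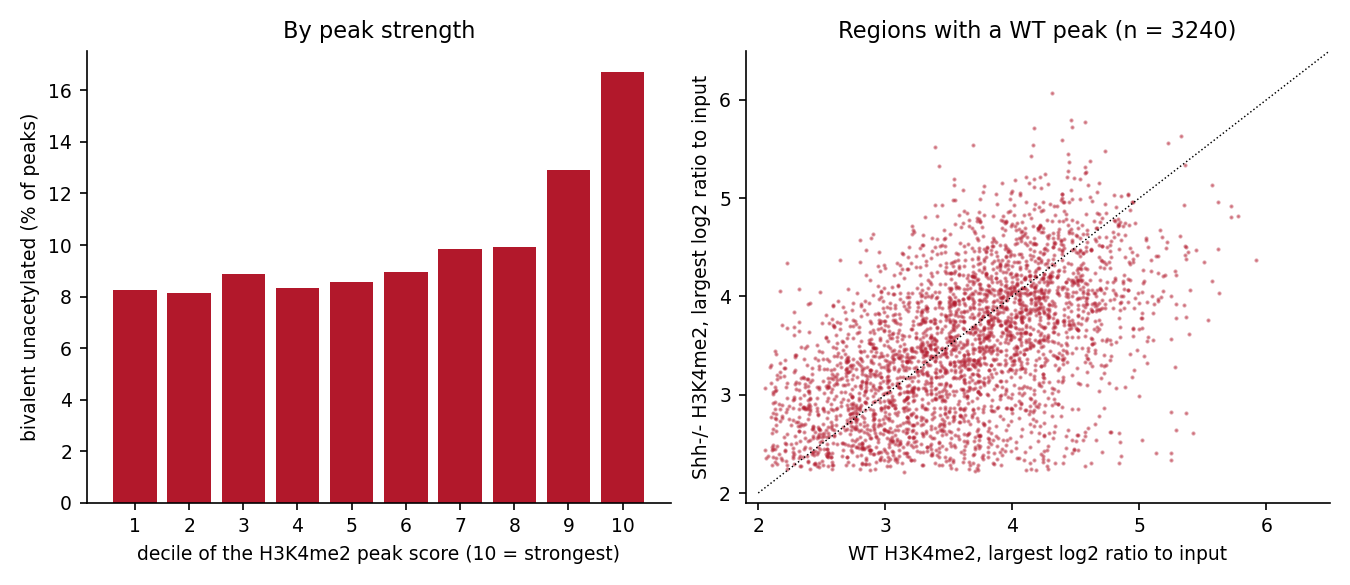
Left, share of Shh-/- H3K4me2 peaks that were bivalent and unacetylated (%) by decile of the authors' peak score, from 8.27% in the weakest to 16.7% in the strongest. Right, largest log2 ratio of ChIP to input in Shh-/- against WT limb buds for the 3240 regions with a WT H3K4me2 peak. Each point is 1 region and the dotted line marks equal values. The points scatter around that line, with a median difference of -0.083.

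The rule used H3K27me3, so its strength here is a description. H3K27me3 covered at least 50% of the H3K4me2 peak in 2889 regions and the whole peak in 1909. Of 20830 Shh-/- H3K27me3 peaks 3680, or 17.7%, held a bivalent unacetylated region. These had a median width of 850 bp and a median log2 ratio of 3.20, against 150 bp and 2.36 in the others. Of the 284 H3K27me3 peaks of at least 5 kb, 202 held one. The 5 widest that did lay over Tlx1 (20150 bp), Foxf1 (20100 bp), Lbx1 (18200 bp), Gsx2 (17900 bp) and Pax6 (16850 bp), which encode transcription factors of spleen, lung and gut mesenchyme, migrating muscle precursors, ventral forebrain, and eye. The one at Lbx1 also held 3 WT and 2 Shh-/- H3K27ac peaks, and the other 4 held none. At the edges of the rule, regions at Nav2, Egr2 and Gli1, among others, touched a limb H3K27ac peak without overlapping it, and 123 regions, or 3.18%, had one within 500 bp. The smallest H3K27me3 overlap was 50 bp, as at Htr1b and Rgs7. Just outside, 15 peaks with H3K27me3 had at most 50 bp of limb H3K27ac, and 248 unacetylated peaks had H3K27me3 within 100 bp without overlap. The median distance from a region to the nearest limb H3K27ac peak was 32301 bp, counted so that touching peaks lie 1 bp apart.

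Few of the regions were acetylated in NIH3T3 cells, whose data the rule did not use. Of the 3865, 707 had an H3K27ac peak in control cells, which is 18.3% (17.1 to 19.5), against 57.6% of all Shh-/- H3K4me2 peaks. With purmorphamine 735 had one, which is 19% (17.8 to 20.3), against 57.7% of all. Of peaks with limb H3K27ac alone 80.2% were acetylated in control NIH3T3 cells too, and the rule left out every such peak, so the closer comparison is with limb peaks that had neither H3K27ac nor H3K27me3. Of those 39.7% (38.9 to 40.5) had a control NIH3T3 peak and 39.8% (39.0 to 40.6) a purmorphamine peak. Weighted for score and width, the difference of the bivalent unacetylated regions from these was -29.9 points in control cells (-31.5 to -28.4) and -29.7 points with purmorphamine (-31.3 to -28.1), in each case lower on 20 of 20 chromosomes. Within CpG-rich promoters the shares in control cells were 22.1% (20.4 to 24.0) and 56.2% (54.1 to 58.2).

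Most of the regions with an NIH3T3 peak had one with and without the agonist. Of the regions 647 had a peak in both lists, 88 with purmorphamine but not in control, and 60 in control but not with purmorphamine. Of the 795 with a peak in either list, 81.4% (78.5 to 83.9) had both, against 89.6% (89.3 to 90.0) over all Shh-/- H3K4me2 peaks and 79.1% (78.1 to 80.1) in peaks with neither limb mark. A purmorphamine peak alone was found in 11.1% (9.07 to 13.4) of the 795, against 10.6% (9.86 to 11.3) of peaks with neither limb mark, and a control peak alone in 7.55% (5.91 to 9.59) against 10.3% (9.61 to 11.1). These are counts of called peaks, and peak height was not compared. The best-ranked with peaks in both were Tead4 (log2 ratio 4.22 in control and 4.3 with purmorphamine), Galnt12 (2.82 and 2.59), Prkg2 (2.86 and 2.93), Lrp11 (3.61 and 3.88) and Kcnk10 (2.56 and 2.64). Further down were 9130213A22Rik (2.61 and 3.72), Mkrn1, Zdhhc14, the zinc finger gene Hivep2 (3.70 and 4.72) and Bahd1 (2.83 and 4.23), which encodes a heterochromatin protein. The best-ranked with a purmorphamine but no control peak lay at Ppfia3, Jam2, Efna3, Rhbdl3 and Ngef, with log2 ratios of 2.41, 2.69, 2.63, 2.25 and 2.43. Those with a control but no purmorphamine peak had as nearest genes Syt12, Pgbd5, Osr2, Plvap and Ankrd60, with 2.11, 2.16, 2.83, 2.18 and 2.94. The nearest control peak lay 301 bp (Efna3) to 75601 bp (Rhbdl3) from the purmorphamine-only regions. The nearest purmorphamine peak lay 51 bp (Ankrd60) to 16151 bp (Pgbd5) from the control-only regions, so some lay just beside a peak of the other list. These 10 were chosen by their limb H3K4me2 rank, and regions of lower rank had higher NIH3T3 ratios. Examples were Gli1 with purmorphamine alone (5.60) and Nav2 in control alone (3.10), though a purmorphamine peak touched the Nav2 region.

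Of 21827 protein-coding genes, 1988, or 9.11%, had a bivalent unacetylated region at the promoter, and 45.8% had a limb H3K27ac peak there. Of the 1988, 216 also had a limb H3K27ac peak elsewhere in the window. A WT H3K4me2 peak was present at 1950, or 98.1% (97.4 to 98.6), against 98.8% (98.6 to 98.9) of the 13868 genes with any Shh-/- H3K4me2 peak. An H3K27ac peak in either NIH3T3 list was present at 716, or 36.0% (33.9 to 38.2), against 80.2% (79.5 to 80.8) of those genes. Those genes include ones with limb H3K27ac, while the rule chose regions without it, so the rule itself sets part of this difference. Genes with H3K4me2 but no limb H3K27ac were not counted apart. The gene lists below are counted against 9.11%. The rule required H3K27me3, which lay at the promoters of 2922 genes, so a list with more H3K27me3 has more room for such regions. They were drawn up with earlier results of these data known, so the counts are a description.

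In many families of developmental transcription factors the share was above this background. Irx, Gata and Dlx genes had such a region at 5 of 6 promoters each, and limb H3K27ac at 2, 2 and 1 of the 6. Nkx genes, which pattern gut, heart and ventral neural tube, had one at 10 of 14, with no limb H3K27ac at any. The best-ranked was Nkx3-2 (chr5:41763200-41764649, H3K4me2 log2 ratio 4.09 in Shh-/- and 3.96 in WT, H3K27me3 5.47). POU class 3 and 4 genes of the nervous system had one at 5 of 7, again with no limb H3K27ac at any, led by Pou3f1 (rank 419, 4.89 in Shh-/- and 4.17 in WT). Pax genes had one at 6 of 9 and LIM homeobox genes at 7 of 12, led by Pax9 and by Isl2, which specifies motor neurons. The 63 other homeobox genes had one at 39, among them Otx1, Barx2 and Lbx1. Limb H3K27ac lay at 1 of the Pax, 3 of the LIM homeobox and 13 of the other homeobox genes. H3K27me3, which the rule required, lay at 6 Irx, 5 Gata, 6 Dlx, 13 Nkx and 6 POU genes. It lay at all 9 Pax, all 12 LIM homeobox and 56 of the other homeobox genes.

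Neural and muscle basic helix-loop-helix genes had one at 16 of 38, among them the proneural genes Atoh1, Atoh7 and Neurog1. Forkhead genes had one at 19 of 44, led by Foxl2, Foxo6, Foxi3 and Foxa1, and Sox genes at 8 of 20, led by Sox1 and Sox2 of the neural plate. T-box genes had one at 6 of 17, and the sine oculis homeobox family at 2 of 6 (Six2 and Six6). Limb H3K27ac lay at 5 of the helix-loop-helix, 15 of the forkhead and 3 of the sine oculis genes. It lay at 10 Sox and 8 T-box genes, more than had such a region. H3K27me3 lay at 27 of the helix-loop-helix, 29 forkhead, 11 Sox, 13 T-box and 4 sine oculis genes. Hox genes, which are active along the limb axes, had one at 8 of 39, while 28 had limb H3K27ac and 32 had H3K27me3. The best-ranked of the 8 were Hoxb8, 201 bp from a limb H3K27ac peak (rank 2437, 4.32 in Shh-/- and 3.97 in WT), Hoxd1, Hoxa13 of the hand plate (rank 5876, 3.95 and 2.84) and Hoxc8.

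Among secreted signals the share was also above the background. Of 22 FGF ligands 14 had such a region, among them Fgf9 (rank 218, log2 ratio 5.04), Fgf18, Fgf12 and Fgf11. Fgf8 and Fgf4, the signals of the apical ectodermal ridge, were also among the 14. Wnt ligands had one at 10 of 19, led by Wnt2 and Wnt11. The BMP and GDF list had one at 8 of 29, led by Inhbb (H3K27me3 log2 ratio 5.53). This list also holds related ligand genes: those of inhibin and activin subunits (Inhbb among them), Nodal, Lefty1, Lefty2 and Amh. Limb H3K27ac lay at 3 FGF and 3 Wnt ligand genes and at 9 genes of the BMP and GDF list. H3K27me3 lay at 16, 14 and 12 in this order. Potassium channel genes, which excitable cells use, had one at 40 of 80, while 7 of the 80 had limb H3K27ac and 51 had H3K27me3.

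Limb mesenchyme regulators had one at 3 of 35, or 8.57% (2.96 to 22.4), a share near the background, while 34 had limb H3K27ac and 22 had H3K27me3. The 3 were Hoxa13, Irx3 and Lhx2, and the last 2 were narrow peaks of 200 and 100 bp with no WT counterpart. Ribosomal protein genes had one at 0 of 80 (upper 95% Wilson limit 4.58%), while 77 had limb H3K27ac. Polycomb subunit genes had one at 4 of 29, or 13.8% (5.50 to 30.6): Cbx7, Pcgf5, Phf19 and Epop. Of 1091 olfactory receptor genes, which carry neither mark in most tissues, 1 had one. Of 3 hindlimb genes, Pitx1 and Tbx4 had one each in these forelimb buds and Isl1 had none. At Pitx1 it lay under an H3K27me3 peak of 14400 bp. At Tbx4 it was a weak peak of 250 bp (rank 29035). Tbx4 also had limb H3K27ac elsewhere at its promoters, and H3K27ac in both NIH3T3 lists.

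As a check of the tissue, all 8 limb mesenchyme markers had limb H3K27ac and none had a bivalent unacetylated region. Markers of other cells were counted in the same way. Of 6 neural markers 4 had such a region (Tubb3, Neurod1, Sox2 and Olig2), of 8 limb ectoderm markers 3 (Cdh1, Epcam and Fgf8), of 6 muscle precursor markers 4 (Lbx1, Pax7, Met and Pax3), of 6 endothelial markers 2 (Kdr and Flt1) and of 6 blood markers 0 (upper limit 39.0%). Limb H3K27ac was present at 0 of the neural, ectoderm and blood markers, at 2 of the muscle precursor markers and at 3 of the endothelial markers. The part that such cells have in the H3K4me2 of these regions was not tested.

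**Figure D4:**
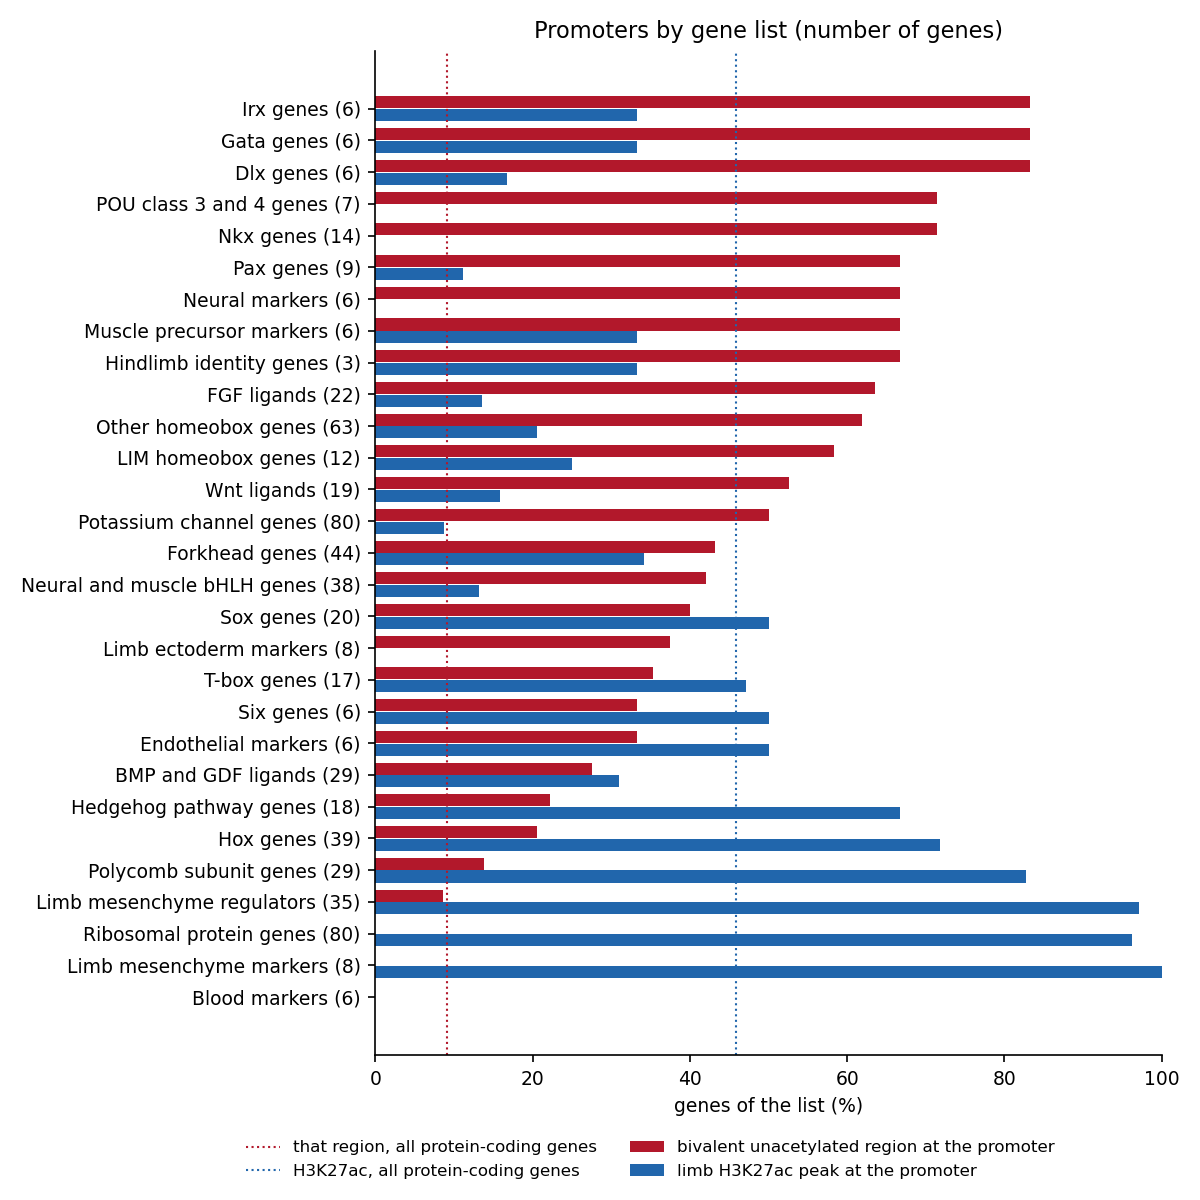
Share of the genes of each list (%) with a bivalent unacetylated region (red) or a limb H3K27ac peak (blue) at the promoter, with the number of genes in parentheses. Dotted lines are the same shares over all 21827 protein-coding genes, 9.11% and 45.8%. Irx, Gata and Dlx genes stand at the top with 83.3%, and limb mesenchyme markers, ribosomal protein genes and blood markers have none. The 1091 olfactory receptor genes are not drawn.

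In the Hedgehog pathway, Shh, Ihh and Dhh are ligands, Ptch1 a receptor, Smo the transducer, and Gli1 a target gene whose protein feeds back on the pathway. Of 18 pathway genes 4 had a bivalent unacetylated region at the promoter and 12 had limb H3K27ac. The 4 were Gli1, Hhip, Ihh and Scube2. Shh and Dhh had H3K27me3 but no Shh-/- H3K4me2 peak in the window. At Gli1 the region was the 100 bp over the start itself (chr10:127341950-127342049), a weak peak with a log2 ratio of 2.43 and an FDR of 0.058. It was the last 100 bp, by coordinate, of a 2100 bp H3K27me3 peak with a log2 ratio of 4.67. The promoter had 2 WT H3K27ac peaks, with log2 ratios of 4.96 and 3.05, the second touching the region, and no Shh-/- H3K27ac peak. In NIH3T3 cells it had a purmorphamine H3K27ac peak of 3300 bp with a log2 ratio of 5.60, ranked 96 in its list, and no control peak. A WT H3K4me2 peak of 400 bp with a log2 ratio of 3.25 overlapped the region. These are called peaks of pooled replicates, and no difference between lists was tested at Gli1.

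Hhip and Scube2, a Hedgehog-binding antagonist and a factor for ligand release, had H3K4me2 in Shh-/- and WT alike (log2 ratios 3.75 and 3.51 at Hhip, 4.00 and 4.06 at Scube2). Neither had H3K27ac in limb or NIH3T3 cells, and their H3K27me3 was weak, at 2.44 and 2.38. Ihh, the ligand of growing cartilage, had a weak H3K4me2 peak of 2.81 under H3K27me3 of 4.54. With an FDR under 0.05 in every list 2 of the 18 pathway genes had such a region: the one at Gli1 was lost by its H3K4me2 peak, and the one at Scube2 by its H3K27me3 peak, with an FDR of 0.1245.

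**Figure D5:**
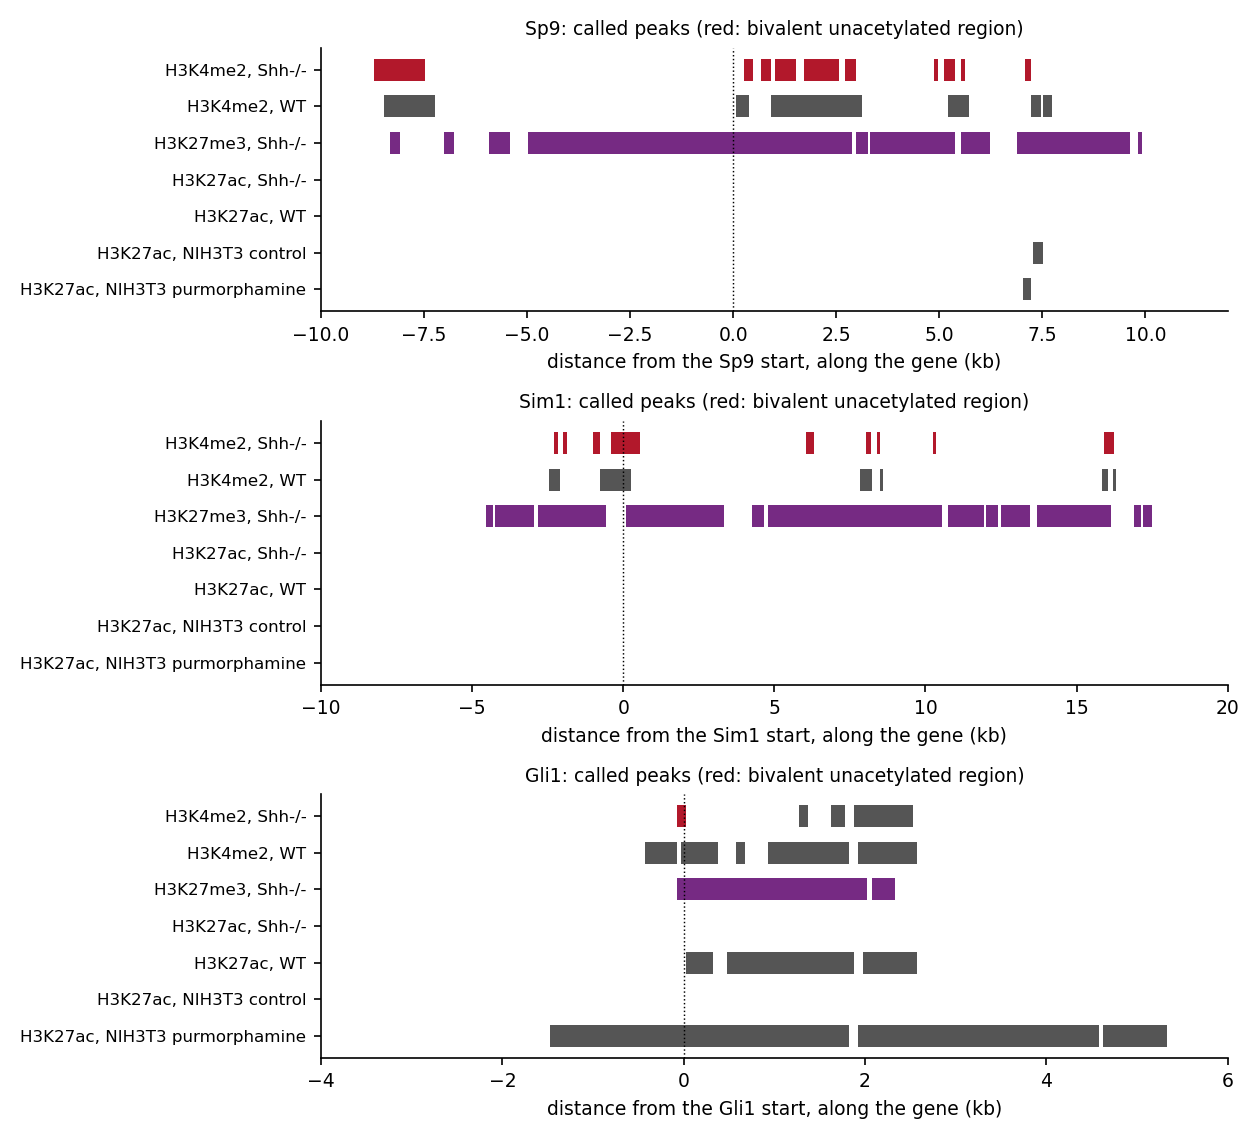
Called peaks of the 7 lists around the starts of Sp9, Sim1 and Gli1, as distance along the gene in kb. Bivalent unacetylated regions are red, H3K27me3 purple and other peaks grey. Sp9 and Sim1 show runs of short regions under broad H3K27me3 with no limb H3K27ac peak within the run. Gli1 shows 1 region at the start, beside a WT H3K27ac peak and within a purmorphamine H3K27ac peak.

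A minority of the regions came in long runs. With regions within 10 kb joined there were 2544 loci, of which 1733 held 1 region and 57 held 5 or more. These 57 loci held 342 regions, or 8.85%. Of the 3865 regions, 55.2% (53.6 to 56.7) had another within 10 kb. Over all Shh-/- H3K4me2 peaks 62.2% (61.7 to 62.7) had a neighbour of their own class. The share was 49.8% (49.0 to 50.6) in the more numerous peaks with neither mark and 73.6% (73.0 to 74.2) with H3K27ac alone. The weighted difference from all other peaks was -7.11 points (-8.63 to -5.59), and it depends on class size, since a larger class has more neighbours to find. With peaks of a class within 1 kb merged the share was 22.7%, against 24.2% of all other peaks. The locus with most, 10 regions over 15950 bp, was Sp9 (chr2:73263200-73279149), a zinc finger gene of limb ectoderm and forebrain. Its 10 Shh-/- H3K4me2 peaks were all bivalent and unacetylated, 7 had a WT H3K4me2 peak, and no limb H3K27ac peak lay within the locus. Sim1 and Gbx2 had 9 regions each, of which 4 and 7 had a WT peak, and neither locus held a limb H3K27ac peak. Pou3f3, Gata6 and a locus beside Fcgr3 had 8 each, and Otx1, Nrn1 and Mkx had 7. At Nrn1 5 of the 7 regions had H3K27ac in control NIH3T3 cells and 5 with purmorphamine, and at Sp9 0 and 1 did.

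Some of the regions lay at microRNA genes. Of 1005 RefSeq hairpins (GRCm38.p6) 27, or 2.69%, lay within 1 kb of a bivalent unacetylated region, and 13 overlapped one. Within 1 kb of any Shh-/- H3K4me2 peak lay 173 hairpins. Those shown were chosen after their positions were seen, as microRNAs known from neurons (miR-137, miR-128, miR-129, miR-132 and miR-212), epidermis (miR-203) and oligodendrocytes (miR-219a), and a pair on different chromosomes with 1 seed (miR-193a and miR-193b). The mature sequences are from RefSeq with the seed, bases 2 to 8, in capitals.
miR-137-3p: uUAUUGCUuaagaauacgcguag
miR-128-3p: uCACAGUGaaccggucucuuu
miR-129-2-3p: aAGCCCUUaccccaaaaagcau
miR-132-3p: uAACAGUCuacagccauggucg
miR-212-3p: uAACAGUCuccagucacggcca
miR-203-3p: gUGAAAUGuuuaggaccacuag
miR-219a-5p: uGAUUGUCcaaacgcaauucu
miR-193a-3p: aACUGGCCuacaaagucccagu
miR-193b-3p: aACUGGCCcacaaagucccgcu
miR-132 and miR-212 have the same seed and lie in 1 region (chr11:75172800-75174099), with H3K4me2 log2 ratios of 3.21 in Shh-/- and 3.69 in WT, H3K27me3 of 4.60, and H3K27ac peaks in both NIH3T3 lists. miR-193a and miR-193b also share a seed but lie on chromosomes 11 and 16, inside a region and 774 bp from another, and both regions had peaks in both NIH3T3 lists. The regions at Mir137 (chr3:118433650-118433999, 3.11 in Shh-/- and 3.05 in WT), Mir128-2 (chr9:112118100-112119199, 3.98 and 4.22) and Mir129-2 (chr2:94241200-94241749, 3.38 and 2.29) had no NIH3T3 peak. They lay 128130, 66570 and 83236 bp from the nearest protein-coding start. Mir203 lay 31 bp from a region with 4.24 in Shh-/- and 3.48 in WT, and Mir219a-2 lay 273 bp from one with 3.03 and 2.68.

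Short motifs were searched on either strand of the 300 bp at each peak centre. A match is a description and not a binding site. The GLI motif GACCACCCA was in 13 regions, or 0.336% (0.197 to 0.575), against 0.270% of all Shh-/- H3K4me2 peaks, and weighted for GC content the difference from other peaks was 0.043 points (-0.160 to 0.245). The RE1 motif, bound by the repressor REST, was in 8, or 0.207% (0.105 to 0.408), against 0.0702% of all. Weighted for GC content this difference was 0.104 points (-0.0520 to 0.259). The 8 included regions nearest to Bdnf, Gria2, Scrt2 and Hic1, a small count named after it was seen. The homeodomain motif TAATTA was in 2.77% against 5.90% of all, and the octamer ATGCAAAT in 0.983% against 1.33%. These AT-rich motifs are rarer in GC-rich sequence, and weighted for GC content both were higher than in other peaks, by 0.725 points (0.191 to 1.26) and 0.443 points (0.120 to 0.767). The E-box CAGCTG was in 18.5% against 15.8%, and weighted for GC content the difference was 0.245 points (-1.15 to 1.64).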

How the data were processed

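The data were peak lists of 7 ChIP-seq conditions, each called by the authors with CisGenome 2.1.0 against input on 2 replicates together, after alignment with Bowtie2 2.2.5 to mm10 by the submitters' processing notes. The labels name ab6002 and the study's methods another antibody for H3K27me3. For each peak the authors' caller gave a q-value (FDR), a score (its peak statistic, by which ranks run), the log2 ratio of ChIP over input at its maximum, and a −log10 Poisson p-value. In every deposited list scores reached down to 3.00 and −log10 values to about 5.00, and 47.2% of H3K27me3 peaks and 87.5% of Shh-/- H3K4me2 peaks had an FDR under 0.05. Depth per library was not used here and cannot be read from the lists.

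Overlap was at least 1 bp. Shares have 95% Wilson intervals. Differences weight the other peaks to the 100 strata of score decile by width decile of the bivalent unacetylated regions, with a stratified normal interval, and unweighted ones have Newcombe intervals. Motif shares were weighted by GC quintile. Overlap functions and weighting were tested on simulated data. No p-value is given, as peaks are not replicates. Starts and annotation were from GENCODE vM21 basic, and sequences from GRCm38.p6, within whose chromosome lengths all peaks lay. Coordinates are given as deposited. Python 3.11.15, pandas 2.3.3 and statsmodels 0.14.6 were used.

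The regions, the 30 gene lists and the tests were chosen with earlier results of these data known. Named were, by rule, the 15 best-ranked regions, the 10 loci with most, the best-ranked by NIH3T3 and WT status, the 5 widest H3K27me3 peaks, the Hedgehog pathway genes, up to 4 genes per list, some of which are given by count alone, and regions at the rule's edges. The microRNAs and RE1 examples were named after their values were seen. Some items that the rule names are not reported here.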

Additional observations from a re-analysis of the deposited data

How the results depend on the processing

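Values are the difference in share, bivalent unacetylated regions minus all other Shh-/- H3K4me2 peaks, weighted by score and width unless stated. By this measure the main NIH3T3 differences were -47.5 (control) and -46.9 points (purmorphamine). All other peaks include those with limb H3K27ac, which the rule left out, so the rule itself sets part of every NIH3T3 difference below. The closer comparison, with peaks of neither mark, was not repeated under the alternatives. Of 57 alternatives of the 6 shares 55 kept the direction and 29 stayed within the 95% interval. The promoter share turned from -2.25 to 0.0853 points where H3K27me3 had to cover 50% of the peak and to 2.26 without weighting. With the better-ranked 50% of every list there were 2077 regions, and the differences were 0.226 (WT H3K4me2), -52.5 (control NIH3T3), -52.2 (purmorphamine), -7.20 (promoter), 47.1 (CpG-rich) and -15.9 points (neighbour within 10 kb). With an FDR under 0.05 in every list there were 3103 regions, with 1.08 (WT H3K4me2, interval -0.0178 to 2.18), -49.2 (control), -48.7 (purmorphamine), 44.5 (CpG-rich) and -9.16 points (neighbour). Without weighting the differences were 7.06 (WT H3K4me2), -43.7 (control), -43.0 (purmorphamine) and 45.3 (CpG-rich). A readout covering 50% of the peak gave -43.7 (control) and -42.1 (purmorphamine), and a gap of up to 500 bp gave 3.45 (WT H3K4me2), -50.9 (control) and -50.6 (purmorphamine). CpG-rich was 42.9 with H3K27me3 over 50% of the peak, 47.4 with peaks within 1 kb merged and 33.9 in a 1000 bp window. The neighbour difference was -4.75 with H3K27me3 over 50% of the peak, -17.7 where H3K27ac within 500 bp counted as acetylation, -1.07 after merging and -15.3 within 50 kb. The cause of these shifts was not tested. Of 90 counts of gene lists under alternatives 85 stayed within 1.5 times, and Hedgehog pathway genes fell from 4 to 2 with either stricter rule. No paired analysis was possible because each list was called on pooled replicates, and for the same reason no replicate could be left out.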
